A study of Mus musculus with 31 samples.

Results

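The genes described here encode the contractile and actin-binding proteins that are abundant in smooth muscle. They are the smooth muscle actins Acta2 and Actg2, the myosin regulatory light chain Myl9, the calponin family members Tagln, Cnn1 and Cnn2, and the tropomyosins Tpm1 and Tpm2. A gene was taken where a probe set of the Affymetrix MgU74Av2 array carried its symbol and no other. All 8 genes were measured, by 9 probe sets, out of 8251 genes named in the same way on 31 arrays. The values are signal intensities that the authors computed with the program dChip, on a linear scale that has no absolute unit and that cannot be compared between genes.

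The cells were embryonic stem (ES) cells of B6 mice, grown on mouse embryonic fibroblast (MEF) feeders in medium with serum and LIF, the cytokine that keeps mouse ES cells undifferentiated. The gelatin ES cells (6 arrays) had been depleted of MEFs and passaged once on gelatin until the dish was well covered. The sorted ES cells (6 arrays) had been sorted by flow cytometry on an Oct4 GFP reporter, and how they were grown before sorting is not given in the sources used here. Embryoid bodies (EBs), which are floating aggregates of differentiating cells, were made from cells on gelatin by seeding them in nonadherent dishes without LIF, and were profiled at day 4 (7 arrays), day 8 (6 arrays) and day 14 (6 arrays). The labels give day 14 for the last group where the study's methods name an earlier day, and the labels were followed. Both ES groups are labelled day 0. By the study's methods the gelatin ES cells were grown attached to a coated dish and the EBs in suspension. EBs and unsorted ES cultures are mixtures, and the arrays measured bulk RNA. Fewer cells of one type and less RNA per cell therefore cannot be told apart in any value below.

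In smooth muscle, alpha and gamma smooth muscle actin form thin filaments on which myosin pulls, and phosphorylation of the myosin regulatory light chain switches that motor on. Tropomyosins lie along the filament, and the calponins and transgelin (Tagln) bind and stabilize it. The same proteins build the stress fibres of fibroblasts and other spreading cells, so most of these genes are not restricted to smooth muscle. Many of them are known targets of serum response factor (SRF), which binds a short DNA element called the CArG box with the coactivators myocardin (Myocd) or Mrtfa. Acta2 and other muscle genes are also known to carry MCAT elements, which bind TEAD factors.

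Promoter windows of 300 bases were found for 6 of the 8 genes in a RefSeq table of the GRCm38.p6 build, each reaching from 250 bases before to 50 bases after an annotated start. They were not found for Tagln and Actg2. The 4 windows that held a CArG box with at most 1 mismatch are shown because these 4 genes also had their highest group mean in gelatin ES cells, as did Tagln and Tpm2. Capitals mark CArG-like elements (CC, then a run of A or T, then GG) and the MCAT element CATTCC on either strand.
Acta2: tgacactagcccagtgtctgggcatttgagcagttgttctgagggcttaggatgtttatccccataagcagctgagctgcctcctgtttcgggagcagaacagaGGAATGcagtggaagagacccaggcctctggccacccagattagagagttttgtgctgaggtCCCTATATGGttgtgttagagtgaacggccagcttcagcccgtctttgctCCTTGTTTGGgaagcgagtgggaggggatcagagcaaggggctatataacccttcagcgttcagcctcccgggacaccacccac
Cnn2: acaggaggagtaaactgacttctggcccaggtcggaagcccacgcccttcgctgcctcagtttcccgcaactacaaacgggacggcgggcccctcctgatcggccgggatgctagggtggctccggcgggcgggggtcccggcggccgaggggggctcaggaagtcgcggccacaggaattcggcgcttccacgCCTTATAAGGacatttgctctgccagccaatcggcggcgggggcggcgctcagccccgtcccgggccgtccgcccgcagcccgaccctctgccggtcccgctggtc
Tpm1: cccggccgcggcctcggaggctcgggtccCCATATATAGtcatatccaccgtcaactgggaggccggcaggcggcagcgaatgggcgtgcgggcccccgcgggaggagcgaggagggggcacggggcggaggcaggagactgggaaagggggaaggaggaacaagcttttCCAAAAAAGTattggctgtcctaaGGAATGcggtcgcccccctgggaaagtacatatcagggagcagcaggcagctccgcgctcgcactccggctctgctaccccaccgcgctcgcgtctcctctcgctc
Myl9: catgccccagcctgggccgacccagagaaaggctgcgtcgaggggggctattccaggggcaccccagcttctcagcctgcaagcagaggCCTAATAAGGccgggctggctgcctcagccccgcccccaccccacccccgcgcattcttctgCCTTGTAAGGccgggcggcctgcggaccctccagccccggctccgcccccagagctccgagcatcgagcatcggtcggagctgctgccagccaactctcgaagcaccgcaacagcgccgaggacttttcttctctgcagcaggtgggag
The Acta2 window (chr19:34255324-34255623, minus strand) held CCCTATATGG and CCTTGTTTGG, each with 1 mismatch, and 1 MCAT element written GGAATG. The Cnn2 window (chr10:79988350-79988649, plus strand) held CCTTATAAGG with no mismatch. The Tpm1 window (chr9:67049164-67049463, minus strand), at 1 of the alternative starts of that gene, held CCATATATAG and CCAAAAAAGT with 1 mismatch each and 1 MCAT element. The Myl9 window (chr2:156775214-156775513, plus strand) held CCTAATAAGG with no mismatch and CCTTGTAAGG with 1 mismatch. No such element was found in the windows of Cnn1 (chr9:22099003-22099302, plus strand) and Tpm2 (chr4:43523505-43523804, minus strand), which speaks only of those letters in those windows. Among 32851 promoter windows of the same length, 1.63% held a CArG box without mismatch, 21.1% held one with at most 1 mismatch, and 14.7% held the MCAT element. The motifs were searched with the expression values known, and a match is a description of the letters and not evidence of binding.

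Arrays within a group correlated at 0.947 to 0.997 over all probe sets. The ratio of the 3′ to the 5′ control probe sets for Gapdh, which reads RNA integrity and amplification, had a median of 5.18 in gelatin ES cells (3.48 to 6.85), against 2.91 in sorted ES cells (2.76 to 3.09). It was 3.16 at day 4 (2.24 to 4.40), 2.27 at day 8 (2.11 to 2.61) and 2.41 at day 14 (2.06 to 2.68). Every gelatin array was thus above every sorted array in this ratio, and its part in the differences between those groups was not tested. Fibroblast marker genes, 25 of 26 of which were measured, summed to a median of 55191 in gelatin ES cells (50550.0 to 79157), against 30338 in sorted ES cells (26042 to 34172). The sum was 21551 at day 4 (19156 to 33045), 26882 at day 8 (21986 to 38314) and 58157 at day 14 (44456 to 66211). Their part in the results was likewise not tested. At day 4, replicates 6 and 7 had Pou5f1 signals of 2407 and 2617, whereas the other 5 arrays lay between 5341 and 6651. Pou5f1 encodes Oct4 and falls as ES cells differentiate. These 2 arrays, and day 4 replicate 2, recur below.

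The smooth muscle label was checked against genes more restricted to that cell type. Myh11, the smooth muscle myosin heavy chain, was near the bottom of the signal range, with means of 136 ± 31.1 in gelatin ES cells, 95.2 ± 9.95 in sorted ES cells, 104 ± 11.6 at day 4, 94.0 ± 7.43 at day 8 and 75.9 ± 4.91 at day 14 (SD, n = 6 or 7). Signals cannot be compared between genes, so this low signal does not show absence. Myh11 passed as higher on gelatin than in sorted ES cells and as lower at day 4 than on gelatin. Des, a muscle gene listed below, passed as lower on gelatin than in sorted ES cells. Smoothelin (Smtn) ranged from 835 to 1330 and myosin light chain kinase (Mylk) from 1604 to 2075 over the 31 arrays, with overlapping groups. Myocd was not measured here. The values below are therefore those of genes for contractile proteins and do not show a smooth muscle cell type.

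Acta2, alpha smooth muscle actin, had its highest signals in gelatin ES cells. The lowest, median and highest arrays read 10927, 13555 and 18659 in gelatin ES cells, against 5221, 6081 and 6500.3 in sorted ES cells. In EBs the day 4 signals were 935, 1390 and 3959.8, the day 8 signals 1824, 3668 and 5199, and the day 14 signals 3342, 4309.5 and 5949.5. Every gelatin array lay above every array of the other groups, and every day 4 array below every sorted array. The group means were 14282 ± 2651 in gelatin ES cells, 5985 ± 550.5 in sorted ES cells, 1712 ± 1037 at day 4, 3590.4 ± 1216 at day 8 and 4471 ± 1016 at day 14 (SD, n = 7 at day 4 and 6 elsewhere, as for the means below). From sorted ES cells downwards the order was day 14, day 8 and day 4, and neighbours in that order overlapped. On the log2 scale the mean difference was 1.24 between gelatin and sorted ES cells, -3.21 between day 4 and gelatin, 1.15 between day 8 and day 4, and 0.36 between day 14 and day 8. These values carry no test, since this pattern of Acta2 was known when the genes were chosen. The other genes and the lists below were also chosen with earlier results of these data known.

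**Figure D1:**
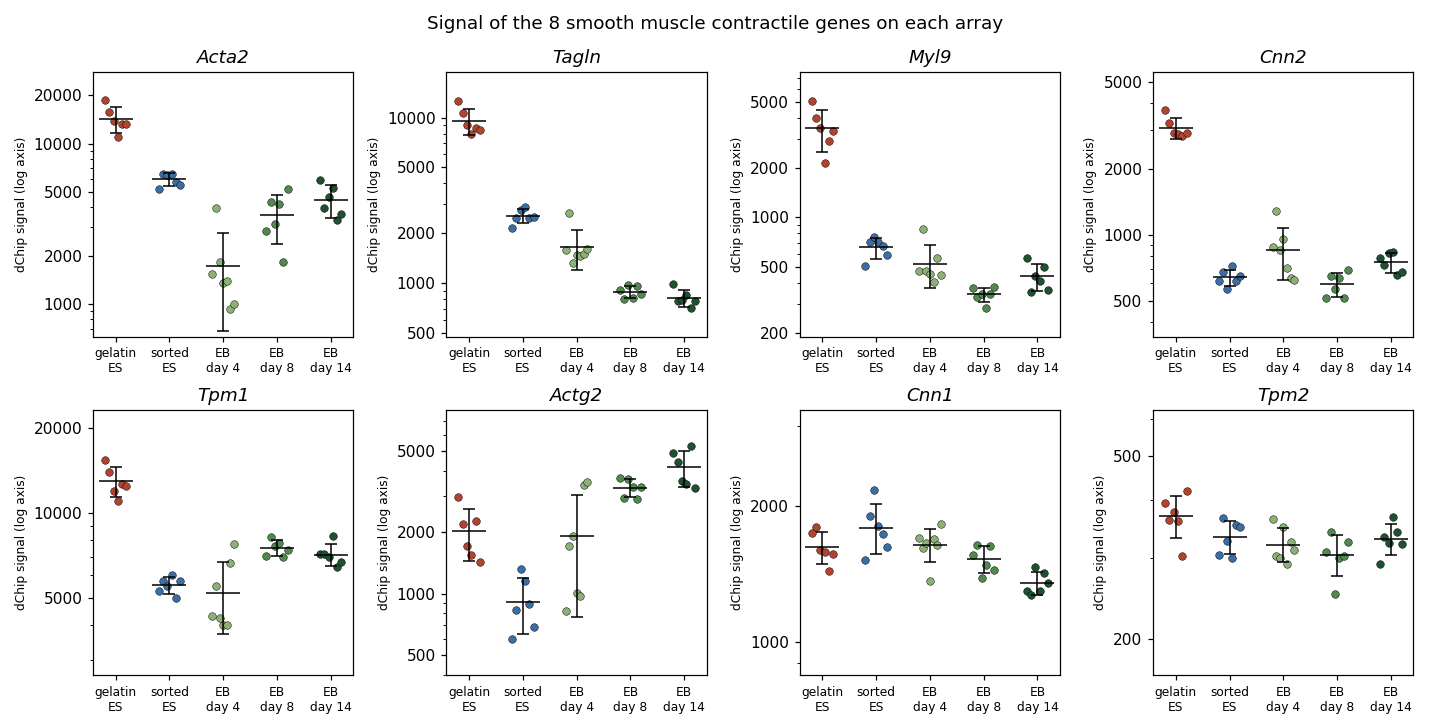
Deposited dChip signal (log scale) of the main probe set of each of the 8 genes in each of the 31 arrays, by group from gelatin ES cells to day 14 EBs. Points are arrays, horizontal lines group means and error bars the SD. Acta2, Tagln, Myl9, Cnn2 and Tpm1 have all 6 gelatin arrays above the other 25 arrays, Actg2 is highest at day 14, and Cnn1 and Tpm2 are nearly level.

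Tagln, an actin-binding protein also known as SM22, was high on gelatin, lower at day 4 and lower again at day 8. The lowest, median and highest signals were 7937, 8864 and 12577 in gelatin ES cells, against 2169, 2491 and 2884 in sorted ES cells. EB signals were 1316, 1504 and 2643 on day 4, then 801.6, 888 and 981 on day 8, then 712, 785 and 992 on day 14. Day 4 and day 8 did not overlap, whereas day 8 and day 14 did. The log2 change was 1.90 ± 0.12 (SE) between gelatin and sorted ES cells, a 3.72-fold difference (limma adjusted p = 3.04e-12). It was -2.55 ± 0.12 between day 4 and gelatin (limma adjusted p = 1.13e-14) and -0.87 ± 0.12 between day 8 and day 4 (limma adjusted p = 6.31e-06). Acta2 and Tagln moved in opposite directions at that last step. At day 14 Tagln was 11.6-fold lower than in gelatin ES cells (log2 change -3.54 ± 0.12, limma adjusted p = 1.1e-17) and 3.12-fold lower than in sorted ES cells (-1.64 ± 0.12, limma adjusted p = 3.07e-11).

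Myl9, the regulatory light chain of smooth muscle and non-muscle myosin, gave a pattern of the same outline. The lowest, median and highest signals were 2139.6, 3401 and 5059 in gelatin ES cells, against 506, 691 and 766 in sorted ES cells. Day 4 EBs had 409, 475 and 849.8, day 8 EBs 284, 344 and 381, and day 14 EBs 355, 428 and 567. Myl9 was 5.15-fold higher in gelatin than in sorted ES cells (log2 change 2.37 ± 0.17, limma adjusted p = 1.66e-11). It was 6.58-fold lower at day 4 than on gelatin (-2.72 ± 0.16, limma adjusted p = 1.21e-12) and fell further at day 8 (-0.58 ± 0.16 against day 4, limma adjusted p = 0.00956). Between day 4 EBs and sorted ES cells the difference was -0.35 ± 0.16 and did not pass (limma adjusted p = 0.12). It passed without day 4 replicate 2, at -0.48 (limma adjusted p = 0.0228).

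Cnn2, the calponin of non-muscle cells, was high in every gelatin array. Its lowest, median and highest signals were 2819, 2914 and 3698 in gelatin ES cells, against 564, 633.9 and 719.9 in sorted ES cells. At day 4 they were 624.6, 855 and 1278, at day 8 513, 599.7 and 689, and at day 14 652, 754 and 836. Cnn2 was 4.8-fold higher in gelatin than in sorted ES cells (log2 change 2.26 ± 0.13, limma adjusted p = 1.23e-13) and 3.72-fold lower at day 4 than on gelatin (-1.89 ± 0.12, limma adjusted p = 3.28e-12). Later steps were small, with -0.48 ± 0.12 between day 8 and day 4 (limma adjusted p = 0.00407) and 0.34 ± 0.13 between day 14 and day 8 (limma adjusted p = 0.0389). The change between day 8 and day 4 did not pass with the 2 groups fitted alone (-0.48, limma adjusted p = 0.0616). Unlike Tagln, Cnn2 was higher at day 4 than in sorted ES cells (0.37 ± 0.12, limma adjusted p = 0.026), and this difference did not pass without day 4 replicate 2 (0.26, limma adjusted p = 0.0676), without day 4 replicate 4 (0.33, limma adjusted p = 0.058), without sorted replicate 3 (0.33, limma adjusted p = 0.0634) or with the 2 groups fitted alone (0.37, limma adjusted p = 0.116).

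Tpm1, the alpha tropomyosin, shared with Acta2 a top on gelatin and a lowest mean at day 4. Its lowest, median and highest signals were 11037, 12585 and 15426 in gelatin ES cells, against 4973, 5599 and 6024 in sorted ES cells. At day 4 they were 3988, 4298 and 7735, at day 8 6984, 7516 and 8224, and at day 14 6419, 7062 and 8273. Tpm1 was 2.33-fold higher in gelatin than in sorted ES cells (log2 change 1.22 ± 0.12, limma adjusted p = 7.29e-09) and 2.55-fold lower at day 4 than on gelatin (-1.35 ± 0.12, limma adjusted p = 1.09e-09). It rose at day 8 (0.58 ± 0.12 against day 4, limma adjusted p = 0.000622) and differed by -0.08 ± 0.12 between day 14 and day 8 (limma adjusted p = 0.661). Day 4 replicates 6 and 7, with 6625 and 7735, were the 2 highest of that group for Tpm1 and the 2 lowest for Acta2. The difference between day 4 and sorted ES cells, -0.13 ± 0.12 with all arrays (limma adjusted p = 0.452), was -0.34 without these 2 arrays and then passed (limma adjusted p = 0.00296).

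Actg2, the gamma actin of enteric smooth muscle, differed from Acta2 in the level of EBs relative to gelatin ES cells. Between EB groups the mean log2 changes of both genes were alike. They were 1.01 for Actg2 and 1.15 for Acta2 between day 8 and day 4, and 0.31 and 0.36 between day 14 and day 8. The lowest, median and highest signals were 1424, 1941 and 2969 in gelatin ES cells, against 598, 858 and 1312 in sorted ES cells. In EBs, day 4 gave 819, 1713 and 3515, day 8 gave 2905, 3330 and 3691, and day 14 gave 3304, 3985 and 5283. Every day 14 array was above every gelatin and every sorted array. Actg2 was 2.22-fold higher in gelatin than in sorted ES cells (log2 change 1.15 ± 0.29, limma adjusted p = 0.00201), and 1.01 ± 0.28 higher on the log2 scale at day 8 than at day 4 (limma adjusted p = 0.00819). With the 2 groups fitted alone the difference between day 8 and day 4 did not pass (1.01, limma adjusted p = 0.0689). At day 14 it was 2.09-fold higher than on gelatin (1.06 ± 0.29, limma adjusted p = 0.00322) and 4.65-fold higher than in sorted ES cells (2.22 ± 0.29, limma adjusted p = 3.4e-07). Between day 4 and gelatin the change was -0.25 ± 0.28, with a 95% interval from -0.82 to 0.31 (limma adjusted p = 0.568). Day 4 replicates 6 and 7 read 3413 and 3515 for Actg2 and the other 5 arrays 819 to 1924. Without these 2 arrays, left out together after the values were seen, Actg2 was lower at day 4 than on gelatin (-0.69, limma adjusted p = 0.026).

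The Actg2 probe set is of a class that Affymetrix marks as sharing probes within a gene family, so other actins cannot be told apart from Actg2 in its signal. The values of the cardiac actin Actc1 and the skeletal actin Acta1 are therefore given beside it. The Actc1 probe set is of the same class, so its signal has the same limit. Actc1 averaged 1503 ± 411 in gelatin ES cells, 717 ± 48.3 in sorted ES cells, 725 ± 223 at day 4, 1806 ± 554 at day 8 and 2083 ± 456 at day 14. In day 4 replicates 6 and 7 Actc1 read 1046 and 993, against 481 to 783 in the other day 4 arrays. Actc1 was thus higher together with the Actg2 probe set in those 2 arrays and in the day 8 mean (log2 change 1.31 ± 0.20 against day 4, limma adjusted p = 1.67e-05). Within day 8 the 2 probe sets differed. Replicates 2, 4 and 6 read 2526, 2221 and 2105 for Actc1 and 2926, 3336 and 3323 for Actg2. Replicates 1, 3 and 5 read 1355, 1494 and 1132 for Actc1 and 3691, 3630 and 2905 for Actg2. The part of Actc1 in the Actg2 signal was not tested. Acta1 averaged 3945 ± 1199 in gelatin ES cells and 309 ± 61.2 at day 14 and so moved the other way in late EBs. In day 4 replicates 6 and 7, however, Acta1 was also high, with 893 and 1182 against 298 to 691 in the other day 4 arrays.

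Cnn1, the calponin of differentiated smooth muscle, and Tpm2, the beta tropomyosin, changed little. Cnn1 means lay between 1349 ± 79.3 at day 14 and 1789 ± 228 in sorted ES cells, a 1.32-fold range, and gelatin ES cells (1617 ± 129) were not above sorted ES cells. The log2 change between those ES groups was -0.14 ± 0.07, with a 95% interval from -0.29 to 0.01 (limma adjusted p = 0.127), and it passed as lower with quantile normalization (-0.28, limma adjusted p = 0.00197) or centring (-0.20, limma adjusted p = 0.0217). In day 14 EBs Cnn1 was below gelatin ES cells (-0.26 ± 0.07, limma adjusted p = 0.00415) and below sorted ES cells (-0.40 ± 0.07, limma adjusted p = 4.3e-05). Its probe set is of a class that shares probes with other transcripts. Tpm2 means lay between 305 ± 30.9 at day 8 and 369.6 ± 39.1 in gelatin ES cells, a 1.21-fold range at the 33rd percentile of signal. With all arrays and the main settings Tpm2 passed between day 4 and gelatin alone (-0.20 ± 0.07, limma adjusted p = 0.0448), a call that was lost in 16 of 23 alternative settings. Between day 14 and gelatin Tpm2 passed as lower with quantile normalization (-0.20, limma adjusted p = 0.0227), centring (-0.20, limma adjusted p = 0.0246), array weights (-0.17, limma adjusted p = 0.0341) and without gelatin replicate 5 (-0.22, limma adjusted p = 0.0186). Between gelatin and sorted ES cells Tpm2 passed as higher with array weights (0.17, limma adjusted p = 0.0372) and without gelatin replicate 5 (0.20, limma adjusted p = 0.0331). A second Tpm2 probe set read 145 to 266 over the 31 arrays and passed in no comparison.

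In the comparison of gelatin with sorted ES cells every gene that passed was higher. Of the 7 genes other than Acta2, 5 were higher (Tagln, Myl9, Cnn2, Tpm1 and Actg2), none was lower and 2 did not pass, where 39.6% of all 12422 probe sets passed, 21.4% higher and 18.2% lower. The median log2 change was 1.22 over the 7 genes and 0 over all probe sets. All 6 gelatin arrays lay above the other 25 arrays for 4 of the 7 (Tagln, Myl9, Cnn2 and Tpm1), against 3.06% of all probe sets, and also for Acta2, which is left out of the count. The 7 genes were not chosen blind to these data, so the shares of all probe sets, here and below, are a description. Gelatin replicate 1 was the highest array of its group for 6 of the 8 genes and also for the fibroblast marker sum (79157). The 5 calls were kept when any single array was left out.

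Against gelatin ES cells, day 4 EBs had 5 of the 7 genes lower (Tagln, Myl9, Cnn2, Tpm1 and Tpm2) and none higher, where 24.2% of all probe sets passed, 7.95% higher and 16.3% lower. The median log2 change was -1.35, against -0.01 over all probe sets. This comparison, like that of day 14 EBs with gelatin below, shares its gelatin arrays with the comparison of gelatin and sorted ES cells. These counts are therefore not separate evidence. Relative to sorted ES cells, in day 4 EBs 2 genes were higher (Cnn2 and Actg2) and 1 was lower (Tagln, -0.65 ± 0.12, limma adjusted p = 0.000233), where 24.8% of all probe sets passed, 11.1% higher and 13.7% lower. The Actg2 difference of 0.90 ± 0.28 (limma adjusted p = 0.0178) did not pass without day 4 replicates 6 and 7 (0.47, limma adjusted p = 0.115). The same Actg2 call was lost with the 2 groups fitted alone (0.90, limma adjusted p = 0.117) and without sorted replicate 1 (0.79, limma adjusted p = 0.0514).

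Between day 8 and day 4 the genes split, with 2 higher (Actg2 and Tpm1) and 3 lower (Tagln, Myl9 and Cnn2), where 24.5% of all probe sets passed, 11.9% higher and 12.6% lower. Acta2 was on the side of Actg2 and Tpm1. Between day 14 and day 8 only Cnn2 passed, as higher, where 31.9% of all probe sets passed, 20.1% higher and 11.9% lower. With quantile normalization Cnn2 missed the threshold there (0.26, limma adjusted p = 0.0855) and Cnn1 passed as lower (-0.26, limma adjusted p = 0.00652). With centring the same held, for Cnn2 (0.25, limma adjusted p = 0.09) and for Cnn1 (-0.26, limma adjusted p = 0.0046). Against gelatin ES cells, day 14 EBs had 5 genes lower (Tagln, Myl9, Cnn2, Tpm1 and Cnn1) and 1 higher (Actg2), where 45.0% of all probe sets passed, 21.8% higher and 23.2% lower. Tpm1 was 1.81-fold lower (log2 change -0.86 ± 0.12, limma adjusted p = 1.6e-06), Cnn2 4.1-fold lower and Myl9 7.74-fold lower. Against sorted ES cells, day 14 EBs had 2 genes higher (Actg2 and Tpm1) and 3 lower (Tagln, Myl9 and Cnn1), where 48.8% of all probe sets passed, 24.8% higher and 24.0% lower. Tpm1 differed by 0.36 ± 0.12 there (limma adjusted p = 0.0162). Centring each array on its median moved the median of all probe sets in that comparison to -0.11, and the Tpm1 difference then missed the threshold (0.25, limma adjusted p = 0.0678).

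**Figure D2:**
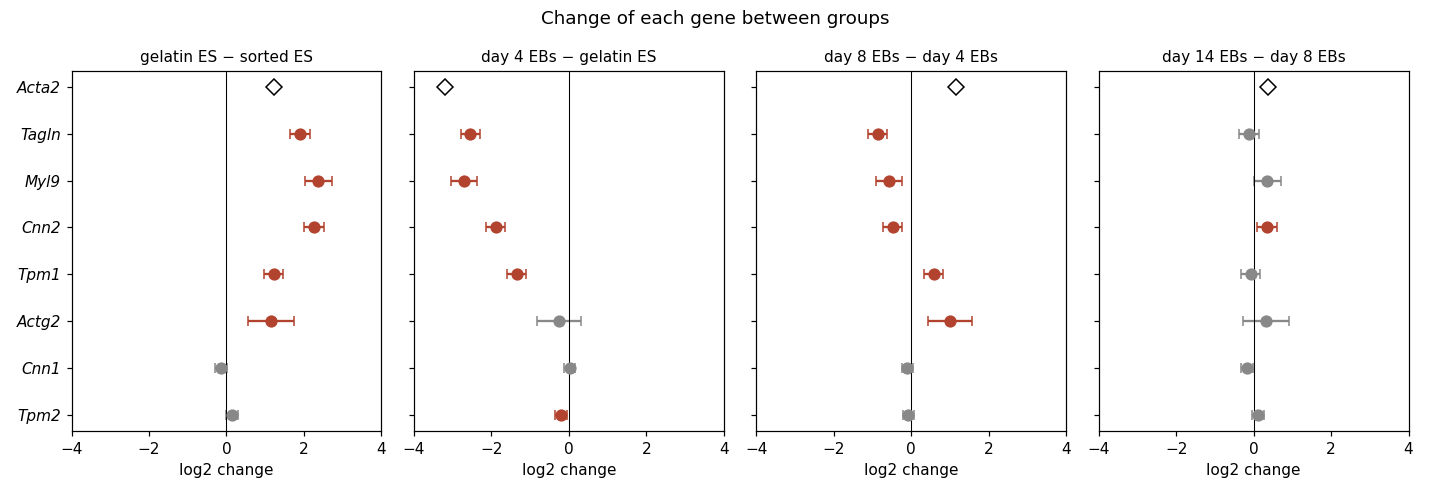
Log2 change of each of the 8 genes in 4 comparisons, with 95% confidence intervals from limma. Red points passed at an adjusted p of 0.05, grey points did not, and open diamonds are Acta2, which was not tested. The 5 red points above 0 for gelatin minus sorted ES cells are Tagln, Myl9, Cnn2, Tpm1 and Actg2, and the genes split in sign between day 8 and day 4.

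Whether the other genes followed Acta2 was also described over groups. Leaving out Acta2, the highest group mean was in gelatin ES cells for 5 of 7 genes, against 26.6% of all probe sets, and Cnn1 and Actg2 were the exceptions. The lowest group mean was at day 4 for 1 of the 7, Tpm1, against 17.4% of all probe sets, a share near the background. Tagln and Cnn1 were lowest at day 14, Myl9, Cnn2 and Tpm2 at day 8, and Actg2 in sorted ES cells. Over the 31 arrays Pearson's r with Acta2 was 0.750 for Myl9, 0.710 for Tpm1, 0.686 for Cnn2 and 0.678 for Tagln. It was 0.446 for Tpm2, 0.056 for Cnn1 and -0.075 for Actg2. These are descriptions over arrays that share groups and normalization.

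The 10 genes most like Acta2 by this measure, among 8250, were Tmsb4x (0.929), Emp3 (0.919), Cavin2 (0.895), Ankrd1 (0.891), Ahnak (0.885), Gsn (0.875), Loxl1 (0.873), Pdgfrb (0.865), Axl (0.865) and Cav1 (0.860). Tmsb4x encodes thymosin beta 4, which binds monomeric actin, and averaged 10924 in gelatin ES cells, 7298 in sorted ES cells, 4641 at day 4, 5218 at day 8 and 6699.9 at day 14. Gsn, the actin-severing protein gelsolin, averaged 2479 in gelatin ES cells, 612 in sorted ES cells, 498 at day 4, 523 at day 8 and 779.6 at day 14. Cav1 and Cavin2 build caveolae, and Ankrd1 is a nuclear and sarcomeric protein of muscle. Pdgfrb is 1 of the fibroblast markers. Myl9 stood at rank 68 in this order and Tpm1 at rank 111.

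Close relatives of the 8 genes include actins and tropomyosins of all cells. Of 10 measured paralogs, 8 were higher and none lower in gelatin than in sorted ES cells (median log2 change 0.65), namely Acta1, Actb, Actc1, Actg1, Cnn3, Tagln2, Tpm3 and Tpm4. The probe sets of Actb, Actc1 and Cnn3 are of the class that shares probes within a gene family. Their signals therefore have the limit given for Actg2, and the 8 are not separate readings. Against gelatin ES cells, 8 were lower and none higher at day 4 (median -0.75). Over all probe sets 21.4% were higher in the first of these comparisons and 16.3% lower in the second. Both comparisons use the same 6 gelatin arrays, here and in the lists below, so they are not separate evidence. Acta1 changed by 1.40 ± 0.28 between gelatin and sorted ES cells (limma adjusted p = 0.000219) and by -2.89 ± 0.27 between day 4 and gelatin (limma adjusted p = 3.88e-09). Tpm4, a tropomyosin of non-muscle cells, changed by 1.19 ± 0.11 (limma adjusted p = 1.5e-09) and -1.21 ± 0.11 (limma adjusted p = 1.14e-09) in the same comparisons. Actb, the cytoplasmic beta actin, changed by 0.93 ± 0.11 and -0.89 ± 0.11. Between day 8 and day 4, 3 paralogs were higher and 3 lower, where 11.9% of all probe sets were higher and 12.6% lower.

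Of 20 further genes of the contractile and adhesion apparatus, 7 were higher and 4 lower in gelatin than in sorted ES cells, where 21.4% of all probe sets were higher and 18.2% lower, and the median log2 change was 0.00. At day 4, 8 were lower and 2 higher than on gelatin, where 16.3% of all probe sets were lower and 7.95% higher. The 7 that were higher on gelatin were Actn1, Actn4, Fhl1, Myh11, Myh9, Pdlim7 and Vcl, and the 4 that were lower were Csrp2, Des, Myl6 and Zyx. Actn1 and Actn4 encode alpha-actinins, Vcl the focal adhesion protein vinculin and Myh9 a non-muscle myosin heavy chain. Actn1 changed by 1.35 ± 0.15 between gelatin and sorted ES cells (limma adjusted p = 5.21e-08) and by -1.34 ± 0.15 between day 4 and gelatin (limma adjusted p = 6.77e-08). Its probe set is also of the class that shares probes within a gene family. Vcl fell by 1.40 ± 0.23 on the log2 scale at day 4 (limma adjusted p = 2.87e-05). Between day 8 and day 4, 4 of the 20 were higher and 2 lower, where 11.9% of all probe sets were higher and 12.6% lower. Csrp2, a LIM protein of smooth muscle, was among the higher (0.57 ± 0.10, limma adjusted p = 0.000167). It averaged 2958 ± 366 at day 8 and 1891 ± 322 at day 14.

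**Figure D3:**
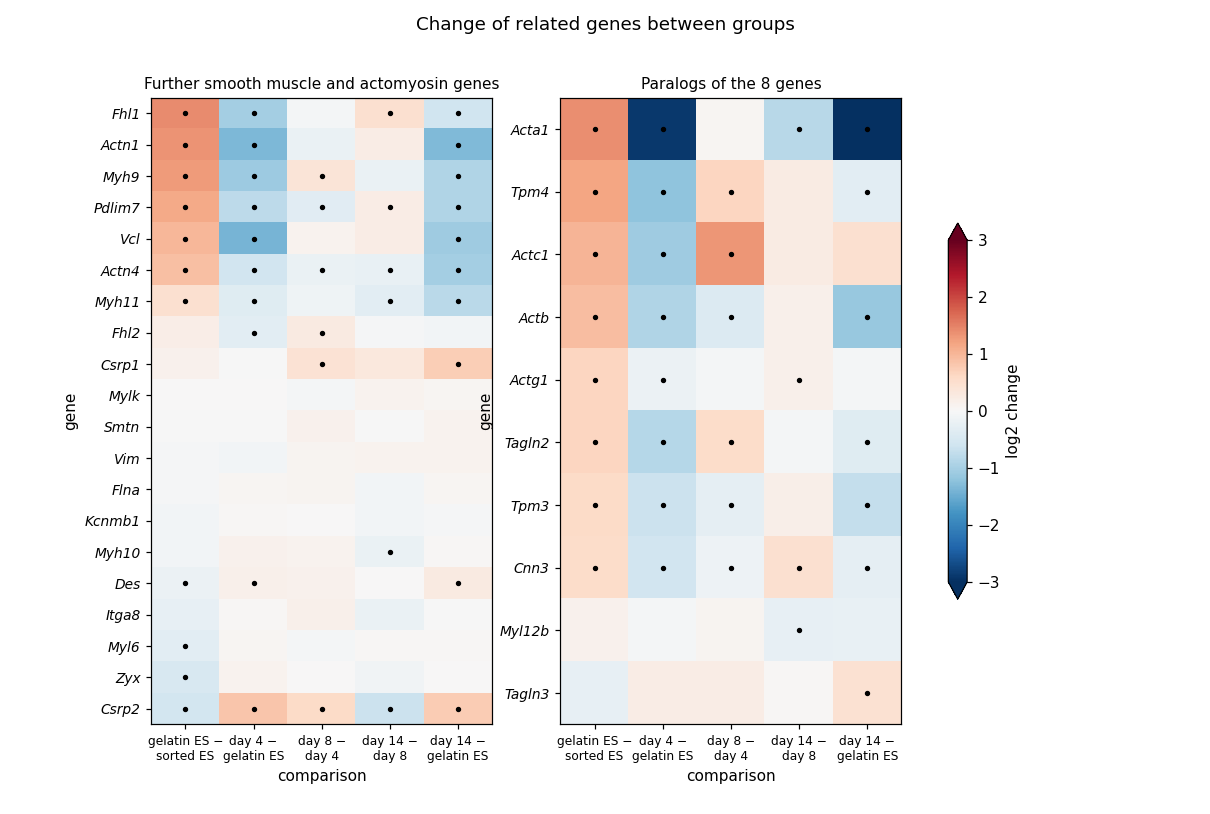
Log2 change (colour, red higher and blue lower) of the 20 further contractile and adhesion genes and the 10 paralogs (rows) in 5 comparisons (columns), with a dot where the change passed at an adjusted p of 0.05. Of the paralogs, 8 are red with a dot in gelatin minus sorted ES cells and 8 are blue with a dot in day 4 EBs minus gelatin ES cells, and both columns use the gelatin arrays.

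Regulators and early targets of SRF were read from a list of 16 genes, 12 of them measured, and neither Srf nor Myocd was among the measured ones. In gelatin against sorted ES cells 7 were higher and 2 lower (median log2 change 0.64), and at day 4 against gelatin 5 were lower and none higher (median -0.31), where 21.4% of all probe sets were higher in the first comparison and 16.3% lower in the second. Fos changed by 2.89 ± 0.47 (limma adjusted p = 1.52e-05), Ccn1 by 2.10 ± 0.22 (limma adjusted p = 1.8e-08) and Egr1 by 2.03 ± 0.31 (limma adjusted p = 5.38e-06) between gelatin and sorted ES cells. Ccn1, a secreted matrix protein, averaged 4730.3 ± 630.5 in gelatin ES cells, against 1128 ± 262 in sorted ES cells. Mrtfa, the actin-sensing SRF coactivator, fell by 0.73 ± 0.09 on the log2 scale at day 4 against gelatin (limma adjusted p = 3.78e-07). Between day 14 and day 8, 5 SRF genes were higher and none lower, where 20.1% of all probe sets were higher and 11.9% lower.

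Genes of TGF-beta signalling, a pathway known to raise Acta2 and Tagln in mesenchymal cells, were measured for 16 of 17 listed. In gelatin against sorted ES cells 7 of 16 were higher and none lower (median log2 change 0.24). Of all probe sets 39.6% passed there, 21.4% higher and 18.2% lower. At day 4 against gelatin 7 were lower and 1 higher, where 16.3% of all probe sets were lower and 7.95% higher. Ltbp1, which anchors latent TGF-beta in the matrix, changed by 1.13 ± 0.13 (limma adjusted p = 9.29e-08) and -1.48 ± 0.13 (limma adjusted p = 8.33e-10) in those comparisons. The ligand Tgfb2 changed by 0.96 ± 0.10 and -0.96 ± 0.10, and it rose again at day 8 (0.78 ± 0.10 against day 4, limma adjusted p = 2.16e-06).

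Part of the fibroblast marker list moved with the smooth muscle genes in the ES cells and at day 4. In gelatin against sorted ES cells, of 25 measured, 13 were higher, 2 were lower and 10 did not pass. The log2 changes there ran from -1.37 to 2.65, and 21.4% of all probe sets were higher and 18.2% lower. At day 4 against gelatin 16 were lower, none was higher and 9 did not pass. Over all probe sets 16.3% were lower and 7.95% higher there. Col5a2, a fibrillar collagen, averaged 4062 ± 2094 in gelatin ES cells, against 609.8 ± 175 in sorted ES cells. Lox, the collagen crosslinking enzyme, averaged 7284 ± 1781 in gelatin ES cells, against 1482 ± 421 in sorted ES cells and 581 ± 502 at day 4. The fibroblast transcription factor gene Prrx1 had group means of 51.3 to 57.5, under the floor of 59.6. At day 14 against day 8, 14 fibroblast markers were higher and 2 lower, where 20.1% of all probe sets were higher and 11.9% lower. Dcn changed by 2.87 ± 0.31 (limma adjusted p = 2.26e-07) and Postn by 2.73 ± 0.38 (limma adjusted p = 6.64e-06), while Tagln changed by -0.13 ± 0.12 in the same comparison (limma adjusted p = 0.482). In day 14 EBs the range of the fibroblast sum overlapped that on gelatin, but part of its members differed. Against gelatin ES cells 7 were higher, 10 lower and 8 not passing, where 21.8% of all probe sets were higher and 23.2% lower. Lum averaged 5278 ± 899.5 at day 14 against 224 ± 15.5 on gelatin, and Postn 4629.8 ± 678 against 206 ± 65.3. Lox averaged 645 ± 247 at day 14 against 7284 ± 1781 on gelatin, and Mfap5, a microfibril protein, 89.5 ± 7.09 against 2638 ± 453. The summed signal of the 8 smooth muscle genes had a median of 19015 at day 14 (17119.8 to 21884), against 44626 on gelatin (38404 to 60522). This sum includes Acta2, whose pattern was known when the genes were chosen, and carries no test. Bright probe sets weigh most in it, with gelatin means of 14282 for Acta2 and 12925 for Tpm1.

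Cardiac muscle genes moved at the time when Actg2 and Acta2 were higher in EBs. Of 17 measured, 9 were higher and none lower at day 8 than at day 4, where 11.9% of all probe sets were higher. Tnnt2, cardiac troponin T, changed by 2.28 ± 0.24 (limma adjusted p = 1.13e-07), Tnnc1 by 1.88 ± 0.14 (limma adjusted p = 1.52e-10) and Myl4 by 1.68 ± 0.15 (limma adjusted p = 7.77e-09). Their part in the EB signals of the smooth muscle genes was not tested. Within day 8 the replicates 2, 4 and 6 had both the highest Acta2 (4333, 4204 and 5199) and the highest Tnnt2 (1024, 858 and 903). In replicates 1, 3 and 5 Acta2 read 2849.8, 3133 and 1824 and Tnnt2 340, 372 and 204. Tagln separated the same arrays in the opposite direction, with 802, 809.5 and 865 in replicates 2, 4 and 6, against 911, 981 and 964 in replicates 1, 3 and 5. Other markers split there too. The ES cell sum was 27469.8, 28862 and 30495 in replicates 2, 4 and 6, against 49086, 56387 and 59323 in replicates 1, 3 and 5. The fibroblast sum was 38314, 30795 and 29878 in replicates 2, 4 and 6, against 23163, 21986 and 23886 in replicates 1, 3 and 5. These replicates were singled out after their values were seen, and the split carries no test. Of 12 skeletal muscle genes none was higher and 1 was lower at day 8 than at day 4. Endothelial genes, 8 of 8 measured, had 4 higher and none lower in the same comparison. Over all probe sets 11.9% were higher and 12.6% lower there.

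**Figure D4:**
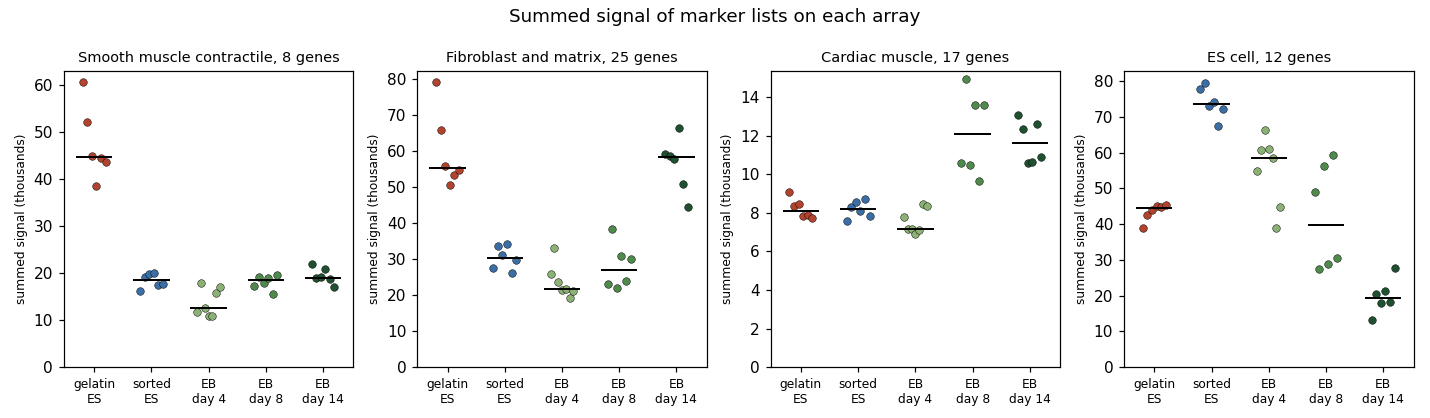
Summed dChip signal per array of the 8 smooth muscle genes and of marker lists for fibroblasts, cardiac muscle and ES cells, by group, on a linear axis. Points are arrays and lines are group medians. The smooth muscle sum includes Acta2, bright probe sets weigh most in each sum, and no sum was tested. The smooth muscle sum and the fibroblast sum are both high in gelatin ES cells, whereas at day 14 only the fibroblast sum is back at that level. Of its 25 markers 10 are then lower and 7 higher than on gelatin, against 23.2% and 21.8% of all probe sets.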

How the data were processed

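RNA was amplified in 2 rounds, labelled and hybridised to Affymetrix MgU74Av2 arrays by the authors, who used dChip for normalization and probe-level modelling, with version and model not given in the sources used here. The deposited values are signal intensities on a linear scale. Of 12488 probe sets, 66 controls were left out. A probe set was named where GEO's platform annotation gave 1 symbol (10833; 396 had several and 1193 had none), and a gene is represented by its probe set of highest mean. A floor was set at 59.6, the 5th percentile over every array and probe set, so that exact zeros (104 of 387128 values) also took it, and values were then log2 transformed. limma 3.58.1 in R 4.3.3 fitted 5 group means on all 31 arrays with a variance trend, with Benjamini-Hochberg adjustment over 12422 probe sets and a threshold of 0.05. Arrays are taken as separate samples, as the study states 6 biological samples per time point, and day 4 has 7 arrays. Array signal has no read depth, so the number of arrays limits precision. Samples were grouped by GEO title. The test was tested on simulated data. Named genes were all members, up to 4 genes of each list with the largest change among those passing, list-defining genes, and the 10 genes most correlated with Acta2. Genes named from more than 1 comparison and day 8 values by array were chosen after values were seen. The members and lists were chosen with earlier results of these data known. Alternatives were a floor at the 1st or 25th percentile, quantile normalization or centring, no variance trend, array weights, a dim filter (lowest 40%), mean of probe sets, a 2-fold minimum, the 2 groups alone, a replicate block and leaving out arrays.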

Additional observations from a re-analysis of the deposited data

Results flagged for a closer look

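At day 4, replicate 2 was the highest array for 4 of the 8 genes, and for 3 of them it stood apart from the other 6 arrays. Acta2 read 3959.8 there, against 1824 in the next array, Tagln 2643 against 1601, and Myl9 849.8 against 569.7. The fourth gene, Cnn2, read 1278 against 956 and was not marked. The same array had the highest fibroblast marker sum of its group (33045, with the other 6 arrays at 19156 to 25684). These are the 3 marked values among 40 sets of arrays (8 genes in 5 groups), of which chance marks about 1 in 20. Without this array the Acta2 difference between day 4 and gelatin was -3.43 on the log2 scale, against -3.21 with it.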

How the results depend on the processing

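The calls of Tagln, Myl9, Cnn2, Tpm1 and Actg2 between gelatin and sorted ES cells, and those of Tagln, Myl9, Cnn2 and Tpm1 between day 4 and gelatin, were kept in every alternative run, and no direction of a passing change was reversed. Counts of genes passing moved by over 1.5 times as follows. With the 2 groups fitted alone the count was 1 in place of 3 for day 4 against sorted, 3 in place of 5 for day 8 against day 4, and 3 in place of 1 for day 14 against day 8. With a 2-fold minimum it was 0 for day 4 against sorted, 1 for day 8 against day 4, 0 for day 14 against day 8 and 2 in place of 5 for day 14 against sorted. Array weights gave 2 for day 14 against day 8, and leaving out single arrays gave 0 to 1 there. That count rests on Cnn2, which lost its call in 9 of 22 alternatives (limma adjusted p 0.00191 to 0.0947), which were quantile normalization, centring and leaving out day 8 replicate 1, 3 or 5 or day 14 replicate 1, 2, 3 or 4. Cnn1 between gelatin and sorted ES cells passed with quantile normalization (-0.28, limma adjusted p = 0.00197), centring (-0.20, limma adjusted p = 0.0217), array weights (-0.16, limma adjusted p = 0.039) and without sorted replicate 1 (-0.19, limma adjusted p = 0.0411). Tpm2 between day 4 and gelatin lost its call in 16 of 23 alternatives (limma adjusted p 0.0083 to 0.159), and its probe set is removed by the dim filter. With the replicate number as a block, the counts were 5, 4, 2, 5, 1, 6 and 5 for gelatin against sorted, day 4 against gelatin, day 4 against sorted, day 8 against day 4, day 14 against day 8, day 14 against gelatin and day 14 against sorted; the block ended the calls of Actg2 for day 4 against sorted (0.72, limma adjusted p = 0.0667) and Tpm2 for day 4 against gelatin (-0.20, limma adjusted p = 0.077) and changed no other. Deviations from group means correlated at -0.351 to 0.494 over 60 pairs of same-numbered arrays from different groups. Pairs with different numbers were not compared, so this range does not decide whether equal numbers mark paired samples. Dim signals, as for Tpm2 and Myh11, limit what could be detected.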
